A study of Mus musculus with 3 samples.

Results

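Ifnb1 (ENSMUSG00000048806) encodes interferon beta, and it was the 1 gene followed here of the 31053 genes in a single-cell RNA count matrix of mouse brain. The gene was chosen because its level in microglia stood far above that in other cells of these same data, so its levels by cell class and by library are given as a description, with no test. The matrix held 35968 cell barcodes in 3 libraries. The conditions were control mice, mice with ischemic stroke (transient occlusion of the middle cerebral artery with reperfusion) and mice with hemorrhagic stroke (collagenase IV injected into the right striatum), all labelled strain C56BL6, age 10 weeks and tissue brain. Tissue of 8 mice per condition was dissociated with a kit for adult brain and made into 1 library per condition, so the mice of a condition cannot be told apart and no condition had a replicate. The libraries are told apart in the matrix by a barcode suffix of 1, 2 or 3. The labels do not say which suffix is which condition, so suffixes are named by number and no condition is compared with another.

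Interferon beta is a type I interferon, a secreted protein that cells make after sensors of foreign or misplaced nucleic acid or of microbial products switch on the transcription factors IRF3, IRF7 and NF-kB. It binds the receptor built from Ifnar1 and Ifnar2, and through the kinases Jak1 and Tyk2 and a complex of transcription factors that includes Irf9 it turns on interferon-stimulated genes, many of which encode antiviral proteins. Microglia are the resident macrophages of the brain and a known source of type I interferon in the central nervous system. In most resting cells Ifnb1 is nearly silent and is transcribed in a burst.

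The gene lies in a cluster of type I interferon genes. In the GENCODE M21 annotation of GRCm38 (mm10) it covers chr4:88522025-88522774 on the minus strand. It is a single exon of 750 bases with no intron, of which 546 bases are coding and 204 bases are annotated as untranslated. No other annotated gene overlapped it. Of the 13 protein-coding genes within 200000 bases, 8 were interferon genes (Ifna15, Ifna14, Ifna9, Ifna12, Ifna13, Ifna16, Ifna2 and Ifnab), all on the same strand. The nearest, Ifna15, lay 34899 bases away. A gene without introns gives no spliced reads, so its counts by themselves do not separate RNA from genomic DNA.

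The stretch of the Ifnb1 promoter below is shown because it holds letters that IRF and NF-kB factors are known to bind, which are the factors that the sensors act on. It was taken from the RefSeq table for GRCm38.p6, minus strand of chr4:88522864-88522944, which is 150 to 70 bases before the RefSeq start, and it reads 5′ to 3′ along the gene. The capitals mark 2 copies of AANNGAAA (a core that IRF factors read), 1 match to the NF-kB consensus and 1 copy of TATAAA.
Ifnb1: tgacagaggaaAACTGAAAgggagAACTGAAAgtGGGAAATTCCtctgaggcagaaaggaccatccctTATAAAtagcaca
The 2 IRF cores started 139 and 126 bases before the RefSeq start, and the NF-kB site started 116 bases before it. Both strands of the 250 bases before the start were searched. AANNGAAA was found 3 times there, whereas 4.20% of the 32851 promoters in the table held 2 or more copies. A match to the NF-kB consensus was found in 3.90% of these promoters, and 42 promoters held it together with 2 or more copies of AANNGAAA. A match is a description of letters and was not tied to binding in these cells.

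Of the 35968 barcodes, 31982 had at least 1000 UMIs (unique molecular identifiers, each standing for 1 captured RNA molecule) and at most 30% of UMIs from mitochondrial genes, and these were kept. Median depth of the kept barcodes ranged from 5801 to 6389 UMIs by suffix. Barcodes were placed in classes by the share of UMIs from marker genes. Barcodes with at least 0.5% of UMIs from C1qa, C1qb and C1qc, which encode the chains of complement C1q, and passing no other gate numbered 11828 and are called microglia-gated. The share of kept barcodes that were microglia-gated was 38.9% under suffix 1, 44.8% under suffix 2 and 23.6% under suffix 3. The label was checked on markers that the gate did not use: P2ry12 was found in 74.1% of microglia-gated barcodes and in 3.76% of barcodes of the other gated classes, Tmem119 in 73.2% and 3.23%, and Cx3cr1 in 92.0% and 7.03%. Sall1 separated them less, at 30.9% and 12.7%. Any macrophage with this much C1q also passes the gate, and the monocyte gate was asked only of barcodes that passed no other gate. Macrophages that entered from the blood were therefore not told apart from microglia. Another 1652 barcodes passed 2 or more gates and are called mixed, and 1426 passed none. The same barcode sequence occurred under more than 1 suffix for 110 sequences, which touched 80 microglia-gated barcodes. Leaving those sequences out left the microglial level of Ifnb1 at 2251 CPM (the UMIs of a gene for each 1000000 UMIs of a group), against 2255 CPM with them.

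Ifnb1 was found largely in microglia-gated barcodes in this matrix. Of the 254803 Ifnb1 UMIs in kept barcodes, 93.8% were in microglia-gated barcodes and 4.04% in mixed barcodes. The microglia-gated part was 94.4%, 94.6% and 84.9% under suffixes 1, 2 and 3, and the mixed part was 3.19%, 3.31% and 12.6%. At least 1 Ifnb1 UMI was found in 8944 of 11828 microglia-gated barcodes, or 75.6% (exact Clopper-Pearson 95% interval 74.8% to 76.4%), and the summed level was 2255 CPM (exact Poisson 95% interval 2246 to 2264). These intervals cover counting error only and say nothing of the spread between mice. Over the other 16 gated classes together, 17076 barcodes, the level was 36.3 CPM (35.2 to 37.5), so the microglial level was 62.1-fold higher.

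The excess in microglia was present under each suffix, and suffix 3 had the lowest level. Microglia-gated barcodes had 2311 CPM under suffix 1, 2482 CPM under suffix 2 and 1217 CPM under suffix 3. The share with an Ifnb1 UMI was 74.3%, 80.3% and 64.5% in the same order. Other gated classes had 40.3, 61.2 and 11.5 CPM, which placed microglia 57.3-fold, 40.5-fold and 106-fold above them. Suffix 3 was thus lowest in both sets of cells, and suffix 2 was highest in both. Each suffix is 1 library, so these differences have no replicate check, and the library and its condition cannot be told apart.

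Suffix 3 remained lowest at equal depth. The median depth of microglia-gated barcodes was 7386, 7992 and 6590 UMIs under suffixes 1, 2 and 3. When every barcode was thinned to 1000 UMIs, the share with an Ifnb1 UMI was 56.0%, 61.4% and 42.5%. Within barcodes of 4000 to 6000 UMIs the levels were 2319, 2463 and 924.5 CPM, and within those of 8000 to 12000 UMIs they were 2780, 2942 and 1496 CPM. Suffix 3 was also lowest within each of the 4 ranges of mitochondrial share. In barcodes with 10 to 30% mitochondrial UMIs, which often marks damaged cells, the pooled level was 2934 CPM, against 2240 CPM in barcodes under 2%.

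**Figure D1:**
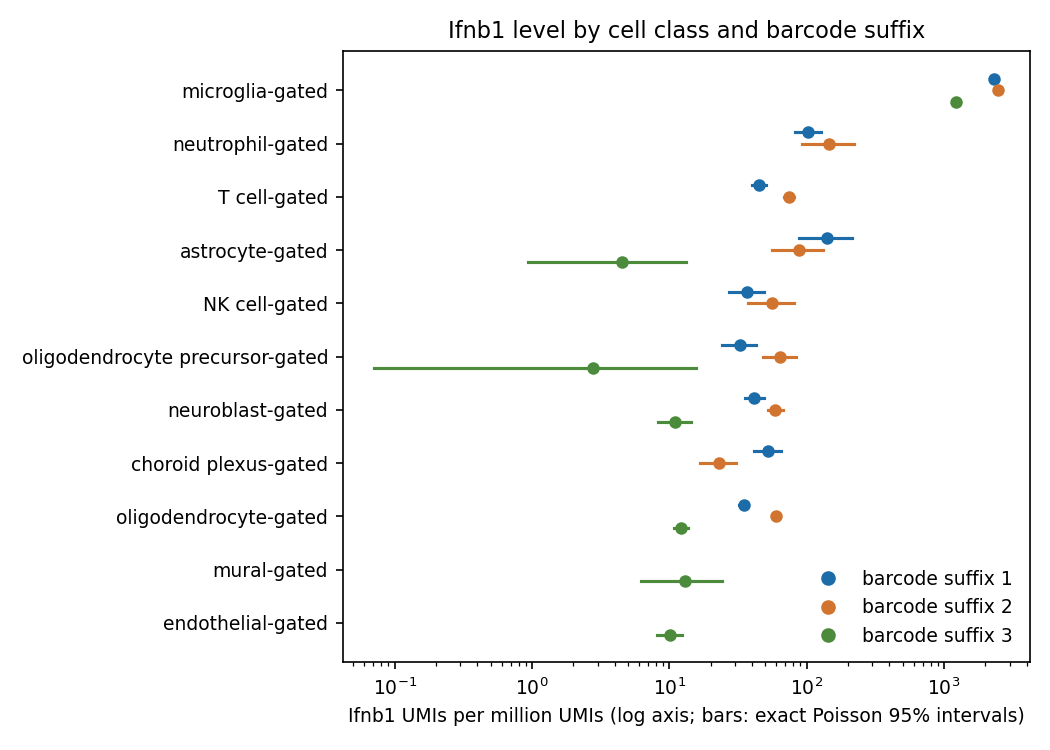
Ifnb1 level in CPM (log axis) by gated class and barcode suffix, for groups of at least 50 barcodes, with exact Poisson 95% intervals. Microglia-gated barcodes lay between 1217 and 2482 CPM, and the highest other group, neutrophil-gated barcodes under suffix 2, was at 146 CPM.

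Among the other classes the levels were low and mostly overlapped. Pooled over suffixes, neutrophil-gated barcodes had 84.9 CPM (69.9 to 102), with 28 of their 112 Ifnb1 UMIs in 1 barcode. T cell-gated barcodes had 61.0 CPM (56.9 to 65.3), and these intervals met neither each other nor that of microglia. The intervals take each UMI as independent, so the order of neutrophils and T cells is not settled by them. From there the intervals of neighbours overlapped, from astrocyte-gated (44.5 CPM), monocyte-gated (43.6), NK cell-gated (42.2) and oligodendrocyte precursor-gated barcodes (38.2) to neuroblast-gated (35.5), choroid plexus-gated (35.5) and oligodendrocyte-gated barcodes (33.9), so their order is not resolved. Mural-gated barcodes (20.0 CPM) lay below oligodendrocytes without overlap and overlapped endothelial-gated barcodes (10.4 CPM). This order goes with the mix of libraries in each class. Mural and endothelial barcodes were nearly all from suffix 3, where every class was low, and so were 147 of the 295 astrocyte-gated barcodes, while T cells and neutrophils were nearly all from suffixes 1 and 2. Within suffix 1 astrocyte-gated barcodes had 140.5 CPM (88.1 to 213), neutrophils 103 CPM (81.8 to 128) and T cells 45.1 CPM (39.8 to 50.9). Within suffix 2 they had 88.3, 146 and 74.0 CPM. Astrocytes thus stood above T cells in both, without overlap under suffix 1 and with overlap under suffix 2. Under suffix 1, 1 barcode held 10 of the 22 astrocyte Ifnb1 UMIs, so the lack of overlap there does not settle the order. The astrocyte-gated barcodes of suffix 1 numbered 58, with a median of 2085 UMIs and C1q at 907 CPM. T cells of that suffix had a median of 5719.5 UMIs and C1q at 383 CPM. Within a suffix, the other classes stood at 0.229% to 6.08% of the microglial level.

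RNA released from broken cells is captured with every droplet, and these low levels were set against other microglial genes as a gauge of it. Oligodendrocytes, which are not a known source of interferon beta, had an Ifnb1 UMI in 15.8% of 9605 barcodes at a median depth of 6140 UMIs, against 75.6% in microglia at 7369 UMIs. The Ifnb1 level in oligodendrocytes was 1.5% of that in microglia. For 16 genes of the C1q gate and the homeostatic microglia list, the same ratio had a median of 1.56%. In neuroblast-gated barcodes the values were 1.57% for Ifnb1 and 1.58% for the 16 genes. In T cell-gated barcodes they were 2.71% and 2.11%, with Ifnb1 above 13 of the 16 genes, and by suffix they were 1.95% and 2.10% under suffix 1 and 2.98% and 2.74% under suffix 2. Under suffix 3 Ifnb1 stood above the median of the 16 genes, at 1.001% against 0.647% in oligodendrocytes, 0.910% against 0.596% in neuroblasts and 0.828% against 0.580% in endothelial barcodes, and it was above 14 of the 16 genes in each. The part of released RNA in these levels was not tested.

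Pooled over suffixes, the number of Ifnb1 UMIs per 1000 C1q UMIs was also compared between classes. It was 86.4 in microglia, 105 in oligodendrocytes, 102 in neuroblasts, 87.3 in endothelial barcodes and 81.6 in NK cells. It was higher in neutrophils, at 136, in T cells, at 119, and in choroid plexus barcodes, at 139. C1q also set the microglia gate, and barcodes of another class that passed it were moved to mixed. Mixed barcodes stood at 76.3. This capped C1q in the other classes. In barcodes that passed no other gate, the ratio was 38.0 with C1q above 4%, 334 at 0.1 to 0.3% and 224 below 0.1%. The part of the gate in these ratios was not tested. A ratio above that of microglia thus cannot be read as Ifnb1 made in that class. Under suffix 3, which held 984 of the 1003 endothelial barcodes, the ratio was 51.1 in microglia. There it was higher in endothelial barcodes, at 87.0, in oligodendrocytes, at 85.5, in neuroblasts, at 85.6, and in mural barcodes, at 58.1. It was lower there in astrocytes, at 14.4, and in oligodendrocyte precursors, at 13.3, which held 3 and 1 Ifnb1 UMIs. The neutrophil values were 154 under suffix 1 and 130 under suffix 2, beside 94.9 and 118 in oligodendrocytes of those suffixes. After thinning to 1000 UMIs, 6.26% and 15.1% of neutrophil-gated barcodes held an Ifnb1 UMI under these suffixes, beside 3.90% and 6.43% of oligodendrocytes. The neutrophil groups held 220 and 58 barcodes, and 1 barcode carried 28 of the 112 neutrophil UMIs. In choroid plexus barcodes 1 barcode carried 59 of the 123 UMIs. Over all other gated classes, 64 barcodes with 5 or more Ifnb1 UMIs (0.375%) held 19.4% of the Ifnb1 UMIs. Their median C1q share was 0.253%, against 0.0242% in the remaining barcodes, so they also held more of the microglial markers.

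Barcodes near the edge of the microglia gate had intermediate values. Those with C1q at 0.3 to 0.5% that passed no gate had 844 CPM and an Ifnb1 UMI in 55.2% of 201 barcodes, and those just inside the gate at 0.5 to 0.7% had 1332 CPM and 56.9% of 167 barcodes. Barcodes with C1q of 1 to 2% and 2 to 3% stood at 2385 and 2405 CPM. Ifnb1 therefore did not keep rising with C1q, and above 4% it was 1699 CPM.

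Within the microglia gate Ifnb1 was spread very unevenly from barcode to barcode. The median was 7 UMIs, the upper quartile was 26.3, the 99th percentile was 147 and the highest barcode had 354. No Ifnb1 UMI was found in 24.4% of barcodes, whereas 0.382% would be at 0 if the same UMIs were spread evenly by depth. The variance was 49.1 times the mean, and the 10% of barcodes with the most Ifnb1 held 48.2% of the UMIs. Under suffix 3 the median was 2 UMIs, against 7 and 10 under suffixes 1 and 2. Barcodes with 100 or more UMIs made up 4.79% and 4.35% of suffixes 1 and 2 and were 1 of 2178 under suffix 3.

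**Figure D2:**
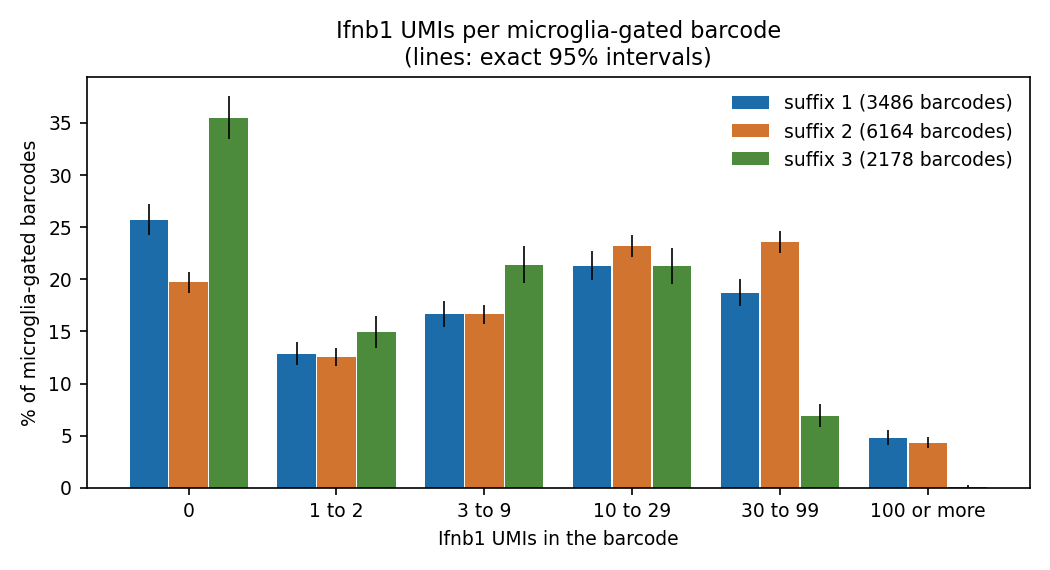
Share of microglia-gated barcodes (%) by the number of Ifnb1 UMIs they held, for each barcode suffix, with exact Clopper-Pearson 95% intervals as lines. Under suffix 3, 35.5% of barcodes held none and 6.89% held 30 to 99, against 19.7% and 23.6% under suffix 2.

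Ifnb1 was found across microglial states. Cst7, a gene of activated microglia, was used to divide the barcodes with at least 5000 UMIs. Those with a Cst7 UMI had 2297 CPM of Ifnb1 under suffix 1 and 2491 under suffix 2, against 2657 and 2627 in those without. Under suffix 3 the values were 1720 CPM in 57 barcodes with Cst7 and 1260 CPM in 1562 without. The direction was thus not the same in each library. Barcodes with Cst7 were deeper, at medians of 13182, 11894 and 8388 UMIs under suffixes 1, 2 and 3, against 7179, 6662 and 7478. The part of depth in these differences was not tested. Barcodes with 3 or more UMIs of cell division genes numbered 299 and had 2093 CPM, against 2263 CPM in the others. Most of the 299 were from suffixes 1 and 2. The values were 1916 against 2329 CPM under suffix 1 and 2241 against 2496 CPM under suffix 2. Depth differed too, with medians of 14588 against 7260.5 UMIs under suffix 1 and 15570 against 7793 under suffix 2. All microglia-gated barcodes of 12000 or more UMIs stood at 2189 and 2262 CPM under these suffixes. The part of depth was not tested. Border macrophage genes such as Mrc1 and Pf4 held at least 0.2% of UMIs in 199 barcodes that passed the C1q gate. Pooled over suffixes, these had a lower level, at 403 CPM (369 to 440), and an Ifnb1 UMI in 21.6%. Of the 199, 159 were from suffix 3, where they had 125 CPM against 1301 CPM in the remaining microglia-gated barcodes of that suffix. There 1 barcode held 66 of their 130 Ifnb1 UMIs. An Ifnb1 UMI was found in 22 and not in 137 of them under suffix 3. Under suffix 1 it was found in 12 and not in 7, and under suffix 2 in 9 and not in 12. The pooled level thus reflects mostly barcodes of suffix 3, and a lower level under suffixes 1 and 2 was not shown. Without the 199 barcodes the microglial level was 2277 CPM.

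Other type I interferon genes were present at far fewer UMIs and in the same barcodes. Ifna2 had 6248 UMIs in microglia-gated barcodes and was found in 10.6% of them, and 97.2% of the barcodes with Ifna2 also had Ifnb1. Its UMIs were 1691, 4510 and 47 under suffixes 1, 2 and 3. Ifna4 had 313 UMIs, Ifna16 134, Ifnz 99 and Ifna5 85, and 98.6% to 100% of the barcodes holding each of them also held Ifnb1. Ifna12, Ifna15, Ifne and the type III interferon gene Ifnl2 had no UMI in 11828 microglia-gated barcodes. Taking 3 counts as the floor, this allows a share of up to 0.0254% of barcodes with a UMI. The Ifna genes are near-identical copies of each other, so reads may be split or lost between them and the value of any single Ifna gene is uncertain.

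To see which genes were found together with Ifnb1, the 8944 microglia-gated barcodes with an Ifnb1 UMI were set against the 2884 without. The first set was deeper, with a median of 8026 UMIs against 5258, so a barcode without a UMI may still have held the RNA. Levels were compared as CPM of summed counts plus 10, pooled and within each suffix. A gene was called when it was past 2-fold one way in the pooled counts and in all 3 suffixes. Barcodes of 1 library are not replicates, so no p-value is given. Among 2219 genes at 50 CPM or more in either set, 20 were called higher with Ifnb1 (0.901%) and 0 lower (0%). In the pooled counts alone 39 were past 2-fold higher (1.76%) and 9 lower (0.406%). Counts of listed genes below are read beside these percentages.

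Interferon-stimulated genes made up 7 of the 20, out of 18 genes of that list tested, and their median log2 ratio was 1.31, beside -0.06 over all genes tested. Ifit1, which encodes an antiviral RNA-binding protein, had 1171 CPM with Ifnb1 and 96.4 CPM without, a log2 ratio of 3.47 (4.01, 3.40 and 2.60 under suffixes 1, 2 and 3). Rsad2, the antiviral enzyme viperin, had 675 and 69.3 CPM, a log2 ratio of 3.11. Isg15, a ubiquitin-like modifier, had 1982 and 315 CPM, a log2 ratio of 2.61. Ifit2, Ifit3, Ifit3b and Mx1 had log2 ratios of 3.09, 2.75, 3.29 and 2.05. With a minimum of 5000 UMIs Mx1 lost its call, and with a pseudocount of 50 CPM Ifit3b, Rsad2 and Mx1 lost theirs. Ifit3 and Ifit3b are close copies, so the split of reads between them is uncertain. Oasl1, Ccl12, Rtp4 and Oasl2 were past 2-fold in the pooled counts, at log2 ratios of 1.1 to 1.5, and stood at 0.31 to 0.53 under suffix 3. The remaining 7 genes were not past 2-fold. Among them Bst2, which encodes the virus-tethering protein tetherin, had 680 and 737 CPM, and Ifi27l2a had 1033 and 963 CPM, so the list did not move as 1 block.

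Early-response cytokines gave 5 more of the 20, out of 14 tested, with a list median of 1.22. Ccl5, a chemokine for T cells and monocytes, had 2012 CPM with Ifnb1 and 449 without, a log2 ratio of 2.14. Tnf had 1834 and 456 CPM, a log2 ratio of 1.98, and Cxcl10, a chemokine that interferons induce, had 5135 and 1371 CPM, a log2 ratio of 1.90. Ccl4 had 25157 and 7633 CPM, and Il6 had 58.9 and 11.7 CPM. Il6 lost its call with a pseudocount of 50 CPM and without suffix 1. Ccl3, Ccl2 and Il1a were past 2-fold in the pooled counts at log2 ratios of 1.45, 1.23 and 1.21, while Ccl2 stood at -0.48 under suffix 3. Il1b had 453 and 513 CPM and Cxcl2 had 1204 and 1335 CPM, so these inflammatory genes of the same list were not higher with Ifnb1. Cxcl1, a neutrophil chemokine, was lower in the pooled counts at -1.01.

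Of the machinery upstream of Ifnb1 that was tested, 1 gene was called. Ifih1, which encodes the double-stranded RNA sensor MDA5 and is itself interferon-stimulated, had 442 and 116 CPM, a log2 ratio of 1.84. It was the 1 called of 4 sensors and adaptors tested, out of 19 listed. The rest, among them Tlr3, Tlr4, Tlr9, Ddx58, Mavs and Tbk1, were under 50 CPM in both sets and were not tested. Tlr7, Tlr2 and the STING gene Tmem173 had log2 ratios of 0.04 to 0.32. None of the 9 tested factors of the Ifnb1 enhancer was called, with a range from -0.28 for Irf1 to 0.29 for Irf7. The list held 15, and Irf3 was among those under 50 CPM and not tested. Ifnar2 and Jak1 of the receptor pathway had -0.09 and 0.09. Of the feedback inhibitors, 0 of 8 were called, and Tnfaip3, which encodes the NF-kB inhibitor A20, was highest at 0.77. The other called genes were Otud1, Gbp5, Rcan1, Bbc3, Cwc25, Grasp and Trim26, with log2 ratios of 1.04 to 2.10. With a pseudocount of 50 CPM all of these but Rcan1 and Bbc3 lost their call. Gbp5 is an interferon-induced GTPase, Bbc3 encodes the cell death protein PUMA and Rcan1 encodes an inhibitor of calcineurin.

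In the pooled counts, lists that mark microglial identity and handling stress were close to all genes. None of the 13 homeostatic microglia genes was called, and their log2 ratios ran from -0.09 to 0.11. For the 22 immediate early and stress genes tested, 0 were called and the median was -0.17. Fos had 4227 CPM with Ifnb1 and 3935 without, and Hspa1a had 1232 and 1746 CPM. These pooled values mix libraries with unlike levels of homeostatic and stress genes. In microglia-gated barcodes Tmem119 was at 299, 236 and 1058 CPM under suffixes 1, 2 and 3, and Trem2 at 3053, 3283 and 2156 CPM. A pooled ratio near 0 thus does not show that these genes were level within each library. In the same barcodes Hspa1a was at 751, 1151 and 3334 CPM under suffixes 1, 2 and 3, and Fos at 3461, 4082 and 6105 CPM. Under suffix 1 alone Hspa1b stood at 0.91 and Zfp36 at 0.85. Such genes are known to rise while tissue is dissociated, and their part in the Ifnb1 level was not tested. Of the 12 activated microglia genes, 0 were called in all suffixes. The rule had little room to call those near 0 under suffix 3, so their lack of a call is not a result. Cst7 and Spp1 stood at 5.54 and 8.34 CPM in microglia-gated barcodes of that suffix. Gpnmb, a gene of lipid-laden phagocytes, was at 0 CPM there and could not be called. Under suffixes 1 and 2 Gpnmb was past 2-fold lower, at log2 ratios of -2.22 and -1.32. It was also past 2-fold lower in the pooled counts, with 129 CPM with Ifnb1 and 391 without.

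Border macrophage genes were among the 10 genes with the lowest ratios. Pf4 was at -2.31 and Mrc1 at -1.94 on the log2 scale in the pooled counts. Under suffix 3 they stood at -3.54 and -2.48, and under suffix 1 at -0.02 and 0.39. Barcodes with border macrophage markers made up 17.7% of the microglia-gated barcodes without Ifnb1 under suffix 3 and 1.57% of those with it. Wfdc17, Ms4a7 and Dab2 were also lowest under suffix 3. Gpnmb and Cxcl1, given above, were in the 10 as well. Gdf15, Gm26532 and Lmna were below 0 under each suffix, at pooled log2 ratios of -1.32, -1.09 and -1.02. At the other end, the growth hormone gene Gh had the highest pooled ratio, and 3 barcodes held 20411 of its 20815 UMIs in the microglia gate. Ifna2 was at 2.76 in the pooled counts and 0.30 under suffix 3.

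**Figure D3:**
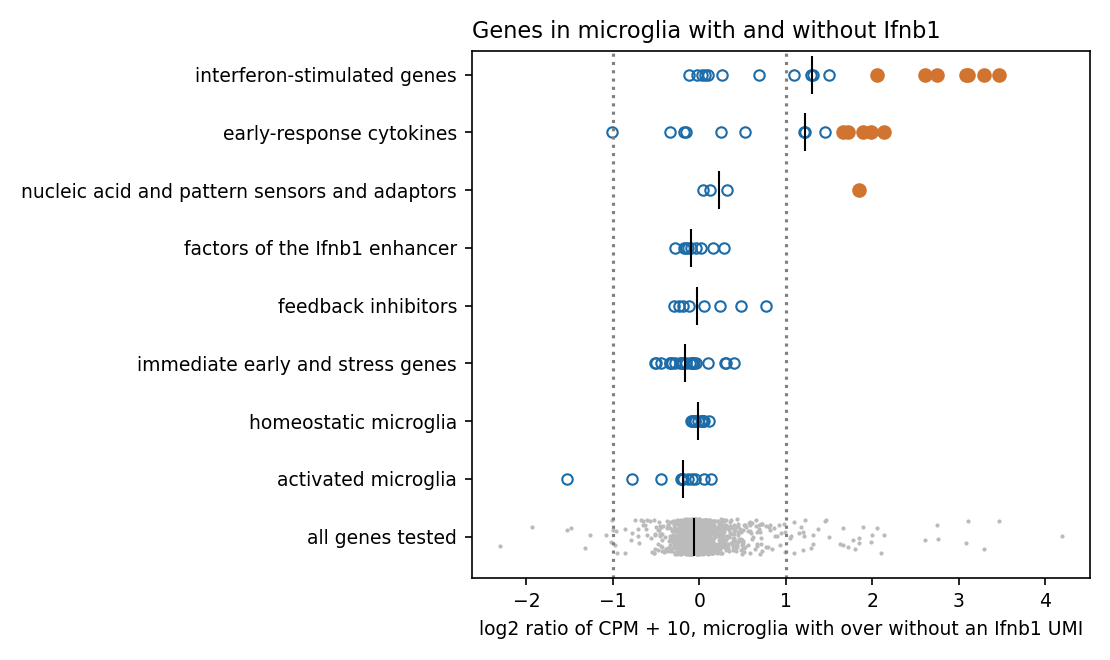
Log2 ratio of CPM + 10 between microglia-gated barcodes with and without an Ifnb1 UMI for the tested genes of 8 lists and for all 2219 genes tested (grey), with the median of each as a black tick. Filled points are the genes past 2-fold (dotted lines) pooled and in all 3 suffixes: 7 interferon-stimulated genes, 5 early-response cytokines and the sensor Ifih1.

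Several of these genes were graded with the amount of Ifnb1. For this, the 8320 microglia-gated barcodes with at least 5000 UMIs were sorted by their own Ifnb1 CPM, which kept the median depth of the groups between 8743 and 10326.5 UMIs. From barcodes at 0 through those under 500, 500 to 1500, 1500 to 4000, 4000 to 8000 and over 8000 CPM, Ifit1 stood at 86.2, 276, 726, 1341, 1975 and 2884 CPM. Isg15 stood at 306, 704, 1444, 2213, 3157 and 4165 CPM. Tnf went from 491 to 3362 CPM and Ccl4 from 7639 to 46277 CPM between the lowest and highest groups. Ifna2 went from 1.78 to 348 CPM. Each step up in Ifnb1 was thus matched by a step up in these genes, including in barcodes where Ifnb1 was already plentiful.

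Among genes that were not called, some were level along the same groups and some went the other way. Trem2 stood between 2979 and 3217 CPM in all 6 groups and Ifnar2 between 166 and 181 CPM. Irf3 went from 27.4 to 20.2 CPM and Irf7 from 112 to 163 CPM. Spp1, an osteopontin gene of activated microglia, went from 15714 CPM in barcodes at 0 to 4310 CPM in those over 8000 CPM, and Gpnmb went from 467 to 36.8 CPM. The groups differed in their mix of suffixes: suffix 3 gave 462 of the 1516 barcodes at 0 and 8 of the 404 barcodes over 8000 CPM. Its part in these gradients was not tested.

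**Figure D4:**
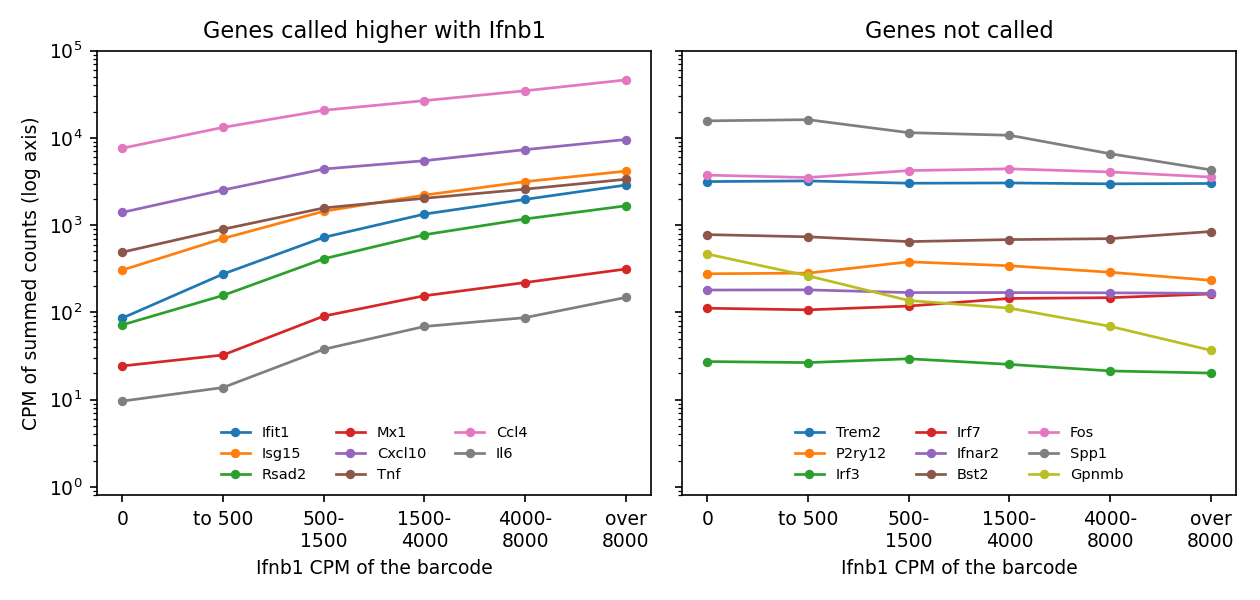
CPM of summed counts (log axis) of selected genes in microglia-gated barcodes of at least 5000 UMIs, grouped by the Ifnb1 CPM of the barcode. Ifit1 ran from 86.2 to 2884 CPM from the lowest to the highest group, while Trem2 stayed between 2979 and 3217 CPM and Spp1 ran from 15714 to 4310 CPM.

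Barcode by barcode, Isg15 was the listed gene that went most closely with Ifnb1. Over the 8320 deep barcodes, the Pearson correlation of log2(CPM + 1) was 0.70 for Isg15, 0.68 for Ifit1, 0.64 for Ppp1r15a, 0.63 for Ifit2 and 0.62 for Cxcl10. Ppp1r15a encodes a regulator of the stress response that restores translation, and it was looked at after its values had been seen. Under the single suffixes Isg15 stood at 0.72, 0.72 and 0.57. Trem2 was at 0.02 in all and at -0.14, -0.09 and 0.18 under suffixes 1, 2 and 3. Some stress genes went with Ifnb1 more under suffixes 1 and 2 than under suffix 3. Under suffixes 1, 2 and 3 Egr1 was at 0.36, 0.30 and 0.06, Atf3 at 0.34, 0.30 and 0.11 and Fos at 0.27, 0.21 and -0.04. Others did not, such as Nr4a1 at -0.11, -0.17 and -0.05. Of the homeostatic genes, Csf1r was at 0.26, 0.11 and 0.16, Tmem119 at 0.18, 0.11 and 0.23 and Fcrls at -0.11, -0.03 and -0.005. These are correlations across cells of 3 libraries, given as a description. In barcodes with an Isg15 UMI, 87.4% also had Ifnb1, against 35.3% of those without.

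Some of the 20 called genes also shared promoter letters. The motif searched was 2 copies of GAAA on the same strand with 2 bases between them. It is a pair of half-sites read by IRF factors and by the complex that contains Irf9, and it always contains AANNGAAA. Of the 20 genes, 17 had an entry in the RefSeq promoter table (Ccl4, Ccl5 and Mx1 had none). Within the 250 bases before the start, on either strand, 8 of the 17 held the paired half-site (47.1%), against 4.14% of the 1764 tested genes with an entry and 3.46% of all 27025 genes in the table. The 8 were Ifit1, Ifit3, Ifit3b, Rsad2, Isg15, Cxcl10, Gbp5 and Trim26. Ifnb1 itself had no copy in this window. The stretches below are shown for genes with large ratios or levels, with the paired half-sites in capitals (as 2 copies of TTTC where the match is on the other strand), each read along its gene from GRCm38.p6.
Ifit1: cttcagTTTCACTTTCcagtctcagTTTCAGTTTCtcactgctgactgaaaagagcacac
Ifit3: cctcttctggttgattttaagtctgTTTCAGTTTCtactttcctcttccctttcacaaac
Rsad2: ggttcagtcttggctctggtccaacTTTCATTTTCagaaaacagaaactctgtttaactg
Isg15: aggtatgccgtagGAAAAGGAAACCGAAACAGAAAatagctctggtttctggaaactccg
Cxcl10: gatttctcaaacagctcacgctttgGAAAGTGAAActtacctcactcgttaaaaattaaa
They lie at chr19:34640779-34640838 on the plus strand for Ifit1, chr19:34583382-34583441 on the plus strand for Ifit3, chr12:26456538-26456597 on the minus strand for Rsad2, chr4:156200850-156200909 on the minus strand for Isg15 and chr5:92349068-92349127 on the minus strand for Cxcl10. Ifit1 held 2 copies here and Isg15 held 3 overlapping copies. The other called genes with an entry, among them Tnf, Il6, Ifih1 and Ifit2, had no match in this window.

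Across cell classes, the genes whose pattern was most like that of Ifnb1 were microglial genes. Over 25 groups of class and suffix with at least 50 barcodes, 13874 genes were ranked by Pearson correlation of log2(CPM + 1) with Ifnb1. The highest were Ccl12 (0.98), Aif1 (0.97), Trem2 (0.95), Ctss (0.95), Fcrls (0.95), Ccl2 (0.95), Igf1 (0.94), C1qb (0.94), C1qa (0.94) and Ly86 (0.94). These groups share libraries, and the 3 microglial groups set much of the correlation. Ifnb1 was chosen for its level in microglia, so a high rank of microglial genes follows from that choice and is not a finding. The level of Ifnb1 in microglia was 2.04-fold higher under suffix 2 than under suffix 3. The same ratio was 1.70 for Ccl12, 1.52 for Trem2, 1.08 for Ctss and 12.02 for Igf1.

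The receptor genes had a wider pattern than the ligand. Ifnar1 was at 24.4 CPM in microglia-gated, 105 CPM in endothelial-gated, 92.5 CPM in neutrophil-gated and 85.4 CPM in T cell-gated barcodes. Ifnar2 was at 173 CPM in microglia and 172 CPM in endothelial barcodes. Among interferon-stimulated genes, Isg15 was at 1665 CPM in microglia, 541 CPM in T cells, 532 CPM in neutrophils and 31.1 CPM in oligodendrocytes. These class values for the receptor genes and Isg15 are pooled over suffixes, and the classes differ in their mix of libraries. Suffix 3 held 984 of the 1003 endothelial barcodes, while T cells and neutrophils were nearly all from suffixes 1 and 2. The part of this mix was not tested. Within microglia, Isg15 was at 1157, 2230 and 520 CPM and Rsad2 at 486, 728 and 45.7 CPM under suffixes 1, 2 and 3, so the suffix with the least Ifnb1 also had the least of both.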

How the data were processed

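Single-cell suspensions were run on a droplet instrument, and the authors made UMI counts with Cell Ranger 3.1.0 (STAR, build mm10), down-sampling reads across libraries before deposit. The deposited file is 1 matrix of whole-number counts per gene and barcode, with no map from suffix to condition. Per the labels, Seurat 3.1.1 was also used, but its output was not used here. No column of another series was present.

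Barcodes with at least 1000 UMIs and at most 30% mitochondrial UMIs were kept. Classes were gated by the share of UMIs from marker genes, with limits set after seeing the marker distributions: 0.5% for microglia, 4% for erythroid cells and 0.1% to 1% for the other 15 classes. Monocyte and NK gates were asked only of barcodes that passed no other gate. No doublet caller was run, and barcodes passing 2 or more gates were set aside as mixed. Levels are CPM of summed counts with exact Poisson 95% intervals, and shares have exact Clopper-Pearson 95% intervals. Thinned shares are exact expectations at 1000 UMIs. Depth over all barcodes was 72498768, 105957232 and 69270514 UMIs under suffixes 1, 2 and 3.

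No test was run, since each condition is 1 library and the gene was chosen from its own levels. Fold changes were computed on CPM plus 10. The call rule recovered 100% of 200 genes simulated at 4-fold either way between microglia with and without Ifnb1, among 2083 genes, and called 0 unchanged genes. The simulated counts were Poisson totals from 1 mean per gene shared by all suffixes. They held neither the uneven spread between barcodes nor genes near 0 under suffix 3. The simulation thus checks the arithmetic of the rule and cannot tell how it fares on these data or near 2-fold. Genes named are Ifnb1, members of fixed lists, the 10 most alike across class and suffix groups and the 10 highest and 10 lowest ratios. The remaining called genes (Gbp5, Rcan1, Bbc3, Cwc25, Grasp and Trim26) and Ppp1r15a were named after their values were seen. The gene, the gene lists and the comparisons were chosen with earlier results of these data known. Mx2 and Clec7a of the lists had no row. Correlations added 1 CPM before the log2. Python 3.11.15, NumPy 2.4.6, SciPy 1.17.1 and pandas 2.3.3 were used. Certain genes are not reported here.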

Additional observations from a re-analysis of the deposited data

How the results depend on the processing

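Microglia stayed far above the other gated classes together under each setting. The share of microglia with an Ifnb1 UMI was 74.2% with a minimum of 500 UMIs, 77.8% with 2000 and 81.8% with 5000, 77.1% with a gate on 8 other microglial genes, 74.8% with mixed barcodes kept and 76.5% without border macrophages. The microglial level was 2373 CPM under upper UMI and gene limits, 2243 and 2275 CPM with gates at 0.25% and 1%, 2266 CPM with the gate on 8 genes, 2143 CPM with mixed barcodes, 2214 CPM as a mean over barcodes, 2296 CPM with a minimum of 5000 UMIs and 2277 CPM without border macrophages. The level in the other classes was 35.1 CPM with a minimum of 2000 UMIs, 30.7 CPM with 5000, 35.0 CPM with a mitochondrial limit of 10%, 37.9 CPM under upper limits, 30.9 and 55.4 CPM with gates at 0.25% and 1%, 65.4 CPM with the gate on 8 genes and 46.2 CPM as a mean over barcodes. The other classes held 17466 barcodes with the 1% gate and 17440 with the gate on 8 genes, against 17076 in the main setting. A barcode that fails the changed microglia gate but passes 1 other gate counts in that class instead of as mixed. The part of such barcodes in the higher levels was not tested. The 20 called genes became 11 with a pseudocount of 50 CPM and 48 with 2-fold in the pooled counts alone, of which 9 were lower. The absence of lower calls also depended on the setting. There was 1 lower call under upper limits, with the 1% gate and with a pseudocount of 1 CPM, and there were 2 with a minimum of 5000 UMIs. Otud1 was lost with a minimum of 2000 or 5000 UMIs, and Grasp and Trim26 were lost without border macrophages. Leaving out each suffix in turn gave shares of 70.5% to 78.1%, microglial levels of 1971 to 2421 CPM, other levels of 23.9 to 51.6 CPM and 19 to 45 calls, the 45 without suffix 3. These calls included 1, 4 and 2 lower ones without suffixes 1, 2 and 3. All 20 remained without suffix 3 and without suffix 2, and Il6 and Trim26 were lost without suffix 1. The settings with 5000 UMIs, the pooled rule, shared barcodes and border macrophages were chosen after seeing the data. No paired analysis was possible because each condition is 1 library and the suffixes are not tied to conditions. With 1 library per condition no spread between mice can be given, and a barcode without an Ifnb1 UMI is not shown to lack the RNA.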
